A study of Mus musculus with 6 samples.

Results

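Aminoacyl-tRNA synthetases are the enzymes that attach each amino acid to its tRNA. Their transcripts were followed in endothelial cells (ECs) of lungs with breast cancer metastases after treatment with clodronate-liposomes or PBS-liposomes. Members were the genes named Aars, Cars, Eprs, Gars, Hars, Iars, Kars, Lars, Mars, Nars, Qars, Rars, Sars, Tars, Vars, Wars or Yars, each also with suffix 1 or 2, together with Farsa, Farsb, Ears2, Fars2 and Pars2. Of 18193 genes with a probe set of their own, 35 met this rule, of which 19 encode cytosolic enzymes (no suffix or suffix 1, with Farsa and Farsb) and 16 encode mitochondrial enzymes. The 35 genes had 72 probe sets between them, and each gene was represented by its brightest probe set over all arrays. A probe set shared by Aars and Exosc6 was left out.

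All samples came from female NSG mice aged 6 to 8 weeks that had received MDA-MB-231-LM2 cells through the tail vein. NSG mice lack T, B and natural killer cells, so macrophages and other myeloid cells are the main immune cells left in this host, and MDA-MB-231-LM2 is a human breast cancer line with a high capacity to colonize the lung. The control group (PBS-liposome, 3 arrays) received liposomes loaded with PBS, and the treated group (clodronate-liposome, 3 arrays) received liposomes loaded with clodronate, which kills the phagocytes that take them up. Both were given on days 14, 16 and 18 after cell injection, and lungs were taken on day 20. ECs were sorted as CD31-positive cells after exclusion of cells with CD45, CD11b, EpCAM, CD140a, CD140b or GFP. Both groups carried metastases, and no array of tumor-free or liposome-free mice enters this comparison. Replicates are called biological in the labels without the number of mice behind each one.

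Each synthetase recognizes its amino acid and the matching tRNAs and joins them at the expense of ATP. Most amino acids have one enzyme for the cytosol and another, encoded by a different nuclear gene, for the mitochondrial ribosome. Gars and Kars each supply both compartments from a single gene. Several cytosolic synthetases are held in a multisynthetase complex by the scaffold proteins Aimp1, Aimp2 and Eef1e1. When tRNAs stay uncharged, the kinase GCN2 phosphorylates eIF2α, general translation slows and the transcription factor ATF4 is translated. ATF4 then activates genes of amino acid uptake, amino acid synthesis and tRNA charging, and most of the synthetase genes listed among its targets are cytosolic. Wars is also a classic interferon-gamma-induced gene.

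The values are log2 signals. Endothelial markers (10 genes, Pecam1 and Cdh5 among them) had a mean signal of 13.06 to 13.27 on every array, against an array median of 8.13, as the endothelial label requires. Across the whole array, 138 of 45037 probe sets passed the threshold of the limma fit (adjusted p under 0.05). Clodronate-liposome replicates 1 and 3 stood apart in manufacturer control probe sets, with hybridization controls at 11.91 and 11.94 against 12.11 to 12.24 on the other arrays, and 18S ribosomal RNA at 13.01 and 13.00 against 12.33 to 12.63.

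The comparison of both groups asked how transcripts for tRNA charging in metastasis-associated ECs differed once macrophages had been targeted. No synthetase gene passed the threshold. By limma 0 of 35 had an adjusted p under 0.05, where 0.434% of all genes did, and the lowest adjusted p among the members was 0.204, for Yars. At an unadjusted p under 0.05, 4 members were higher after clodronate-liposome treatment (Yars, Mars1, Nars and Wars2), where 4.54% of all genes were, and 1 was lower (Wars), where 5.49% of all genes were. In 9 members all 3 clodronate-liposome arrays lay above all 3 PBS-liposome arrays, and in 2 all lay below. Such separation upward was found in 7.49% of all genes and in 9.39% of genes with a signal above the array median, and separation downward in 8.75% and 10.1%. The latter background is the closer one, since 33 of the 35 members had a signal above the median.

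Among the 19 cytosolic genes, 7 were separated upward (Yars, Mars1, Nars, Iars, Gars, Aars and Eprs) and 1 downward (Wars), while among the 16 mitochondrial genes 2 were separated upward (Vars2 and Fars2) and 1 downward (Lars2). The mitochondrial counts are close to the background shares and nothing is read from them. For Gars and Aars the gap between the groups was only 0.001 and 0.002. The median log2 difference, clodronate-liposome minus PBS-liposome, was 0.06 over cytosolic genes and 0.00 over mitochondrial genes, beside 0.00 over all genes. No test was made between the compartments as lists. The 95% confidence interval of the difference lay within 0.5 on either side of 0 for 15 cytosolic and 14 mitochondrial genes, so that a log2 difference beyond 0.5 lay outside the interval for most members.

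**Figure D1:**
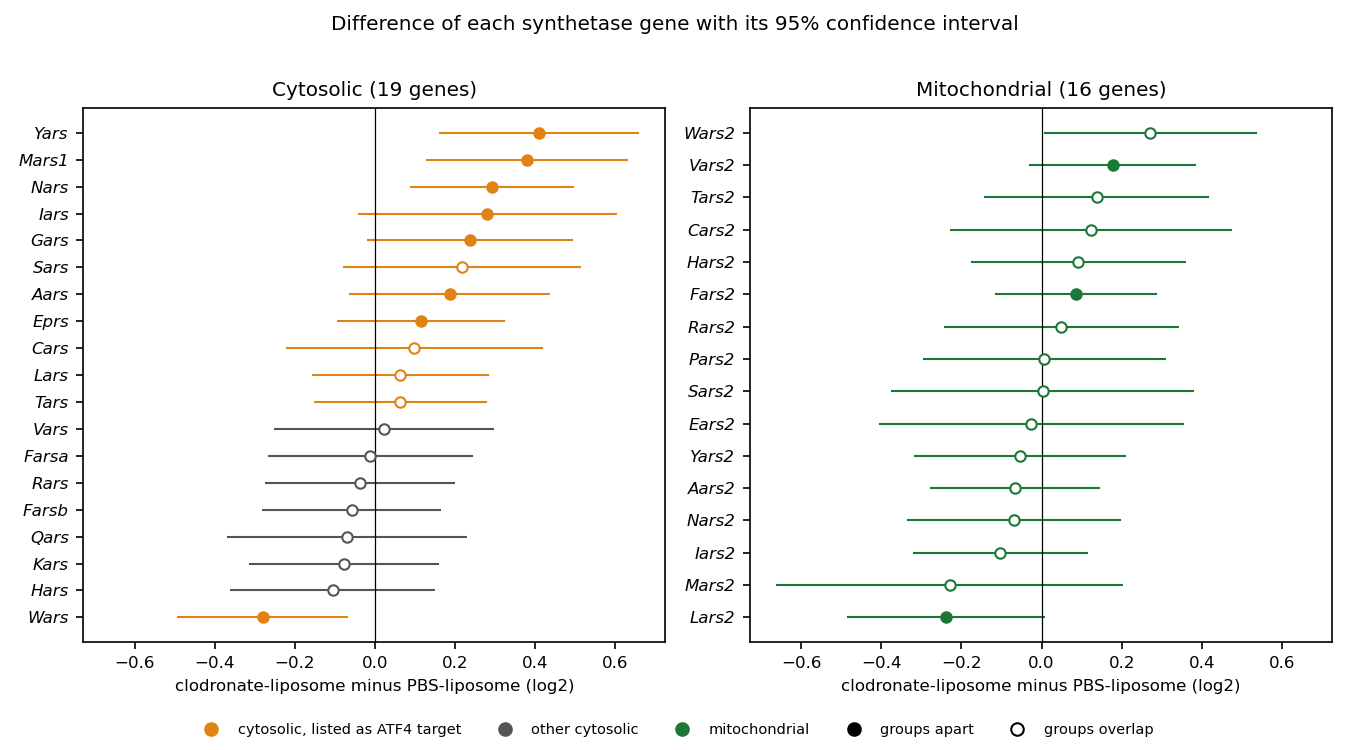
Log2 difference of each of the 35 synthetase genes (x axis, clodronate-liposome minus PBS-liposome) with its 95% confidence interval from limma, cytosolic genes on the left and mitochondrial genes on the right. Filled points mark genes whose 3 arrays of one group all lay beyond the 3 of the other, orange marks cytosolic genes usually listed as ATF4 targets, and the intervals of Yars, Mars1, Nars, Wars2 and Wars are the only ones that leave out 0.

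Yars, which charges tyrosine and has a single probe set, had the lowest p of the members. Its log2 signals were 10.09, 10.06 and 9.98 on PBS-liposome arrays 1, 2 and 3, and 10.62, 10.33 and 10.40 on clodronate-liposome arrays 1, 2 and 3. The groups lay 0.25 apart, with clodronate-liposome replicate 1 highest. The difference was 0.41 (SE 0.11, 95% interval 0.16 to 0.66, adjusted p = 0.204), a 1.33-fold higher signal, and it stayed between 0.33 and 0.47 when any single array was left out.

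Mars1, the methionine enzyme of the multisynthetase complex, which also charges the initiator tRNA, had a similar profile. Its signals were 11.40, 11.63 and 11.49 with PBS-liposomes and 12.02, 11.80 and 11.83 with clodronate-liposomes. The groups were separated by 0.18, and the difference was 0.38 (SE 0.11, interval 0.13 to 0.63, adjusted p = 0.244), or 1.30-fold.

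Nars, the asparagine enzyme, had little spread within either group. It read 11.93, 11.98 and 11.94 on PBS-liposome arrays and 12.29, 12.24 and 12.20 on clodronate-liposome arrays, with 0.22 between the groups and no array standing apart. The difference was 0.29 (SE 0.09, interval 0.09 to 0.50, adjusted p = 0.267). Its second probe set was also separated, with 11.32, 11.17 and 11.13 against 11.53, 11.70 and 11.69 and a difference of 0.44 (adjusted p = 0.17).

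Iars, the isoleucine enzyme and another member of the complex, read 11.67, 11.30 and 11.69 on PBS-liposome arrays and 12.02, 11.75 and 11.74 on clodronate-liposome arrays. The groups lay only 0.05 apart because PBS-liposome replicates 1 and 3 came close to the treated arrays. The difference was 0.28 (SE 0.14, interval -0.04 to 0.60, adjusted p = 0.534), and a dimmer probe set gave 0.27, also with separated groups. The difference was 0.15 without PBS-liposome replicate 2 and 0.14 with the hybridization control signal in the fit.

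In Gars, Sars and Aars, the clodronate-liposome arrays were spread widely, with replicate 1 highest and replicate 2 at the level of the controls. Gars, the glycine enzyme of both compartments, read 12.33, 12.41 and 12.35 against 12.74, 12.41 and 12.65, a difference of 0.24 (SE 0.11, adjusted p = 0.505). Sars, which charges serine and the selenocysteine tRNA, read 12.32, 12.39 and 12.48 against 12.84, 12.41 and 12.60, a difference of 0.22 (SE 0.13, adjusted p = 0.619), and its groups overlapped. Aars, the alanine enzyme, read 11.16, 11.22 and 11.29 against 11.58, 11.29 and 11.36, a difference of 0.19 (SE 0.11, adjusted p = 0.610). A second Aars probe set showed the same order of treated arrays more strongly, with 10.92, 10.74 and 11.03 against 11.83, 10.82 and 11.50, and differed by 0.48 (SE 0.24) with overlapping groups. With clodronate-liposome replicate 2 alone as treated array, differences were 0.05 for Gars, 0.01 for Sars and 0.06 for Aars.

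Eprs, a single protein that charges both glutamate and proline, differed little. Its signals were 11.62, 11.60 and 11.60 with PBS-liposomes and 11.79, 11.64 and 11.73 with clodronate-liposomes. The groups were separated by 0.02, and the difference was 0.11 (SE 0.09, interval -0.10 to 0.32, adjusted p = 0.734). Its other 3 probe sets gave 0.10, 0.04 and 0.12, all with overlapping groups.

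Wars, the tryptophan enzyme, was the one cytosolic gene separated in the other direction. It read 11.9995, 11.9462 and 11.8388 on PBS-liposome arrays and 11.6470, 11.6322 and 11.6655 on clodronate-liposome arrays. The treated arrays were close together (SD 0.02) and lay 0.17 below the lowest control. The difference was -0.28 (SE 0.09, interval -0.49 to -0.07, adjusted p = 0.312), which corresponds to a 1.21-fold higher signal in the controls. The other 3 Wars probe sets were also lower, by -0.37, -0.25 and -0.17 on the log2 scale, and the groups were separated in the first and second of these. Whether interferon had a part in the Wars difference was not tested. In the same arrays, interferon-gamma-induced genes listed for reference (9 measured) had a median difference of -0.69, with all 9 below 0. This list was chosen with earlier results of these data known. Where 8.75% of all genes were separated downward and 0.434% passed the threshold, 8 of the 9 were separated downward and 3 passed it. These 3 were the chemokine genes Cxcl9 (-1.60, adjusted p = 0.017) and Cxcl10 (-1.53, adjusted p = 0.0064), and the MHC class I regulator Nlrc5 (-1.14, adjusted p = 0.034). When replicate numbers were blocks, or the hybridization control signal entered the fit, all 3 calls were lost (adjusted p 0.051 to 0.072 and 0.094 to 0.198), and with any single array left out the call for Cxcl10 held 6 of 6 times, that for Cxcl9 1 of 6 (without clodronate-liposome replicate 2, 0.028, otherwise up to 0.086) and that for Nlrc5 0 of 6 (0.050 to 0.139).

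**Figure D2:**
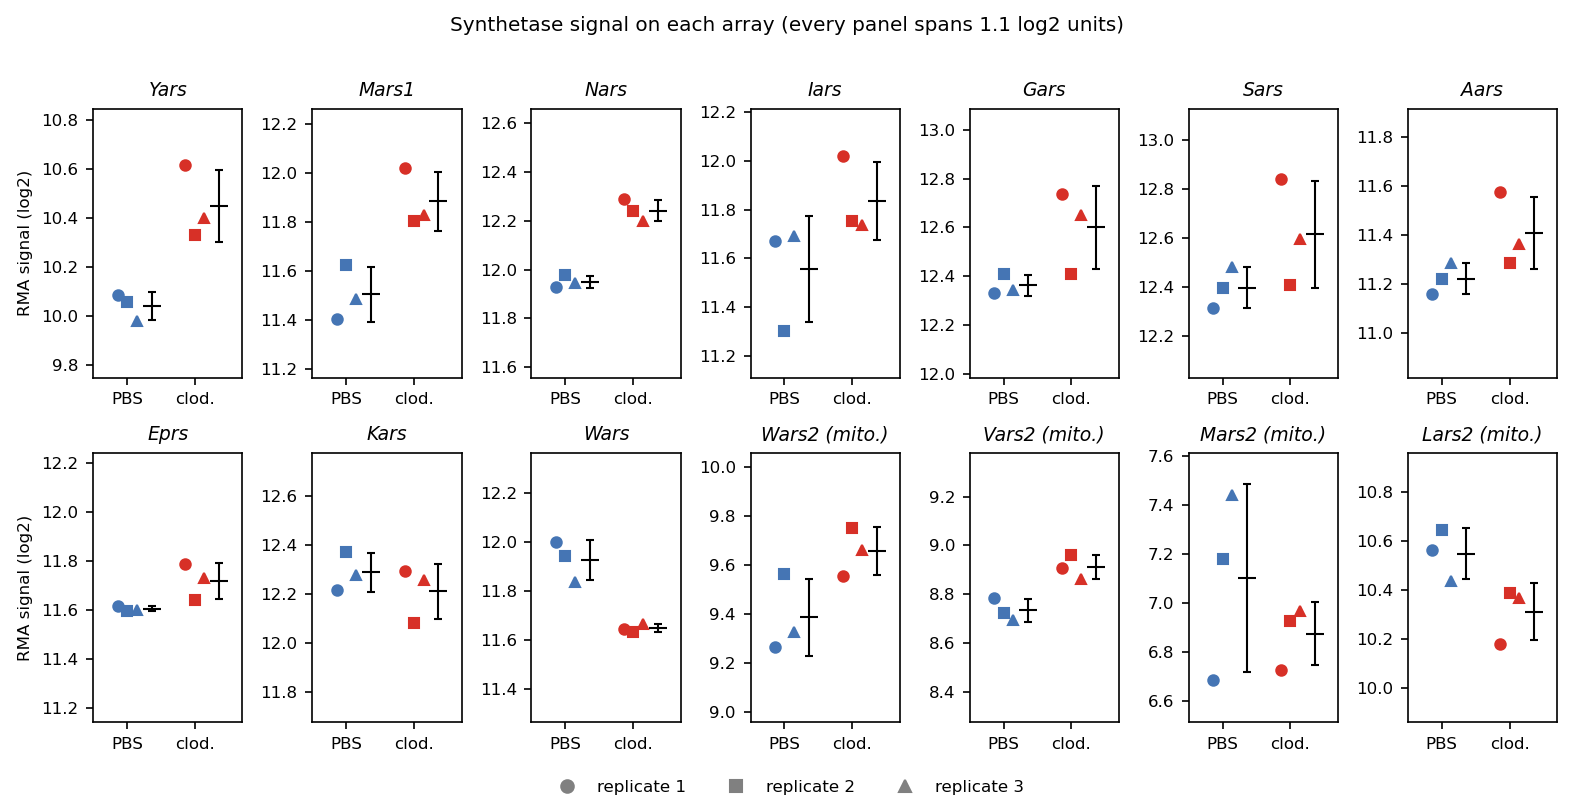
RMA log2 signal (y axis) of 14 synthetase genes on the 3 PBS-liposome (blue) and 3 clodronate-liposome (red, clod.) arrays, with marker shapes for the replicate number and black bars for the mean and SD of 3 arrays. Each panel spans 1.1 log2 units. Wars is the one cytosolic panel with all red points below all blue points. Clodronate-liposome replicate 1 is the highest point for Yars, Mars1, Nars, Iars, Gars, Sars, Aars and Eprs. This array also had the lowest hybridization control signal (11.91).

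The other cytosolic genes lay near 0 and their groups overlapped. Kars, the lysine enzyme of both compartments and a member of the complex, read 12.22, 12.37 and 12.28 against 12.29, 12.08 and 12.26, a difference of -0.08 (SE 0.10, interval -0.32 to 0.16). Differences were 0.10 for Cars (cysteine), 0.06 for Lars (leucine), 0.06 for Tars (threonine) and 0.02 for Vars (valine). They were -0.01 for Farsa and -0.06 for Farsb, the subunits of the phenylalanine enzyme, -0.04 for Rars (arginine), -0.07 for Qars (glutamine) and -0.11 for Hars (histidine). Adjusted p values of these genes were between 0.813 and 0.986. Other probe sets departed from these values in 4 of the genes. A dimmer probe set of Farsb was higher on every treated array (difference 0.55, adjusted p = 0.25), while a bright Farsb probe set differed by 0.03 and the last by -0.08. Those of Farsa gave -0.04, -0.20 and 0.10, those of Qars 0.13, 0.07 and -0.16, and that of Hars -0.22.

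Among mitochondrial synthetases, Wars2 had the lowest p. The mitochondrial tryptophan enzyme read 9.27, 9.56 and 9.32 on PBS-liposome arrays and 9.56, 9.75 and 9.66 on clodronate-liposome arrays. PBS-liposome replicate 2 reached just above clodronate-liposome replicate 1, so that the groups overlapped. The difference was 0.27 (SE 0.11, interval 0.01 to 0.54, adjusted p = 0.450), and the other probe set gave 0.26.

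Lars2, the mitochondrial leucine enzyme, was the one mitochondrial gene separated downward. Its signals were 10.56, 10.64 and 10.44 with PBS-liposomes and 10.18, 10.39 and 10.37 with clodronate-liposomes, with 0.05 between the groups. The difference was -0.24 (SE 0.11, interval -0.48 to 0.01, adjusted p = 0.483), and both other probe sets gave -0.14 with overlapping groups.

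Vars2, the mitochondrial valine enzyme, read 8.79, 8.72 and 8.69 against 8.91, 8.96 and 8.86. Its groups were separated by 0.08, with a difference of 0.18 (SE 0.09, adjusted p = 0.545), whereas a second probe set gave -0.03 with overlapping groups. Mars2, the mitochondrial methionine enzyme, had a dim signal and the widest control spread, at 6.68, 7.18 and 7.44 against 6.73, 6.93 and 6.97. It differed by -0.23 (SE 0.19, interval -0.66 to 0.20, adjusted p = 0.742), and its other probe set had the opposite sign (0.15). The difference was -0.44 without PBS-liposome replicate 1 and -0.06 without PBS-liposome replicate 3.

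The remaining 12 mitochondrial genes differed by -0.10 to 0.14. Fars2 (phenylalanine) was separated upward by a small margin, with a difference of 0.09 (SE 0.09). Differences above 0 were also measured for Tars2 (0.14), Cars2 (0.12), Hars2 (0.09), Rars2 (0.05), Pars2 (0.01) and Sars2 (0.00), and differences below 0 for Ears2 (-0.03), Yars2 (-0.05), Aars2 (-0.07), Nars2 (-0.07) and Iars2 (-0.10). Dimmer probe sets gave another value in several of them. The 3 further Ears2 probe sets, for the mitochondrial glutamate enzyme, were at -0.26, -0.43 and -0.34 and separated downward in the first and the last of these. A Yars2 probe set was separated upward (0.28), that of Tars2 was at -0.09, those of Cars2 at -0.08 and -0.03, and that of Iars2 at -0.05.

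Cytosolic and mitochondrial enzymes of the same amino acid were compared as the difference of their log2 differences, in 17 pairs. The cytosolic gene had the higher difference in 9 pairs and the lower one in 8, with a median of 0.11. The exact permutation test over the 6 arrays cannot give a two-sided p below 0.1 with 3 against 3, and 7 pairs reached that value, 5 of them with the cytosolic gene higher. Eprs and Fars2 each enter 2 of the pairs, and no share over other gene pairs was computed beside this count, so that it is a description. The 5 were methionine (Mars1 minus Mars2, 0.61), tyrosine (Yars minus Yars2, 0.46), isoleucine (Iars minus Iars2, 0.38), asparagine (Nars minus Nars2, 0.36) and leucine (Lars minus Lars2, 0.30). Tryptophan stood at the other end. The log2 ratio of Wars to Wars2, of which only the change can be read, was 2.734, 2.382 and 2.514 on PBS-liposome arrays and 2.090, 1.882 and 2.003 on clodronate-liposome arrays, a shift of -0.55. The other pair with the cytosolic gene lower at that p was Farsb minus Fars2 (-0.14). The values for tyrosine, methionine and phenylalanine rest on the brightest probe sets, and their mitochondrial or subunit genes had further probe sets that moved differently, as given above.

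**Figure D3:**
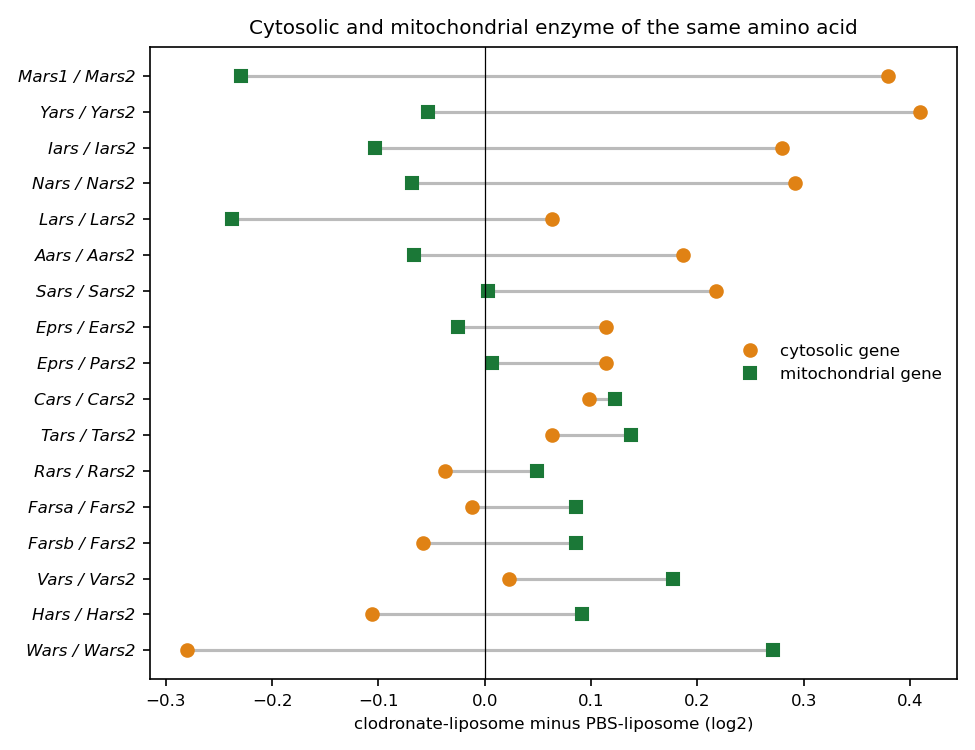
Log2 difference (x axis, clodronate-liposome minus PBS-liposome) of the cytosolic gene (orange circle) and the mitochondrial gene (green square) of one amino acid, joined by a line, for 17 pairs. Pairs are ordered by cytosolic minus mitochondrial difference, from methionine at the top (0.61) to tryptophan at the bottom (-0.55), and the orange point is to the right in 9 of them.

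The cytosolic genes were also described by whether they are usually listed as ATF4 targets. The 12 listed genes (Aars, Cars, Eprs, Gars, Iars, Lars, Mars1, Nars, Sars, Tars, Wars and Yars) had a median difference of 0.20, with 11 above 0 and Wars as the exception, and they held all 8 separated cytosolic genes. The other 7 (Farsa, Farsb, Hars, Kars, Qars, Rars and Vars) had a median of -0.06, with 1 above 0 and 0 separated. This division was made with results of these arrays known and was not tested. Over all genes, 7.49% were separated upward and 8.75% downward. Over genes with a signal above the array median, the closer background, these shares were 9.39% and 10.1%. Per array, the median of the gene-centred signals of the 12 listed genes was -0.13, -0.08 and -0.08 with PBS-liposomes and 0.22, 0.02 and 0.07 with clodronate-liposomes. In clodronate-liposome replicates 1, 2 and 3, 10, 8 and 9 of the 12 lay above all PBS-liposome arrays, where 30.5%, 28.3% and 25.3% of all genes did.

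The size of that median varied with the treated arrays included. Without clodronate-liposome replicates 1, 2 and 3 in turn it was 0.12, 0.27 and 0.21, with 11 of the 12 genes above 0 each time. It was 0.12 when the signal of the hybridization controls entered the fit, and 0.10 when clodronate-liposome replicate 2 alone stood for the treated group (a setting chosen after seeing the data), with 11 and 10 of the 12 genes above 0. The part of array quality in these differences was not tested beyond these fits.

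**Figure D4:**
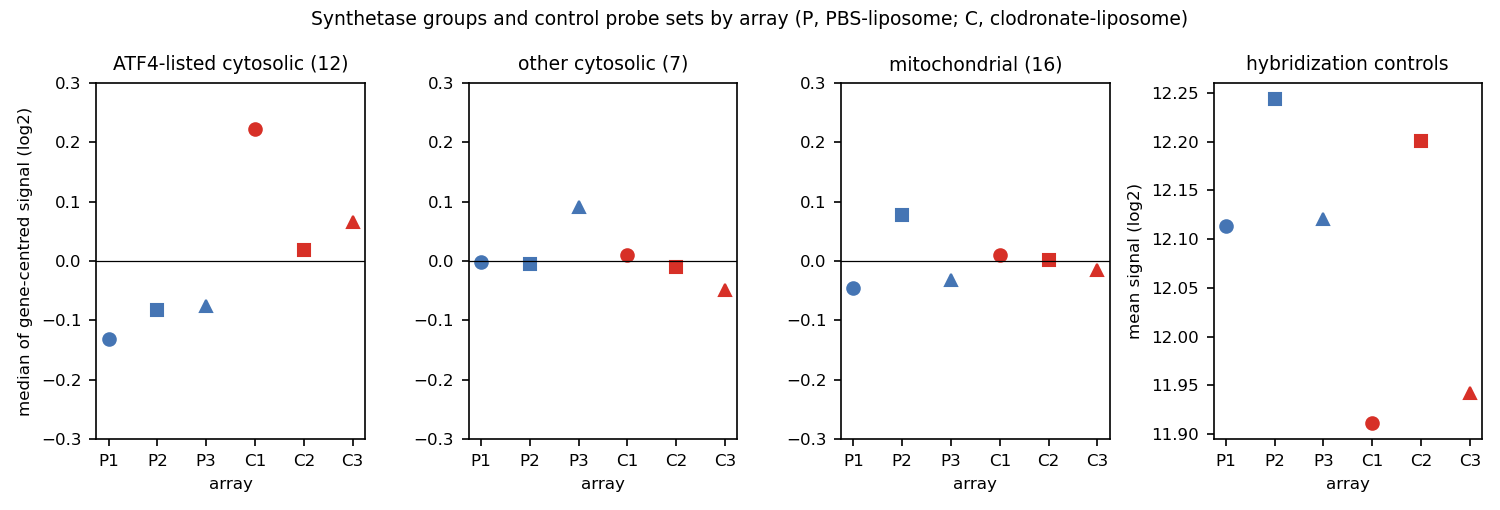
Median of gene-centred log2 signals on each array (P1 to P3, PBS-liposome; C1 to C3, clodronate-liposome) for 12 ATF4-listed cytosolic, 7 other cytosolic and 16 mitochondrial synthetase genes, with the mean log2 signal of the hybridization control probe sets in the right panel on its own scale. The median of the ATF4-listed genes lies below 0 on all PBS-liposome arrays and above 0 on all clodronate-liposome arrays, which does not hold for each gene. Hybridization controls are lowest on C1 and C3 (11.91 and 11.94).

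ATF4 binds, with a C/EBP partner, to amino acid response elements. Promoter sequence from 250 bases before to 50 bases after the start was taken from RefSeq (GRCm38.p6, the first listed start of each gene) for 12 cytosolic and 14 mitochondrial synthetase genes, and both strands were searched for the letters TGATGNAA of such elements. A match was present in 5 of 12 cytosolic promoters (Aars, Gars, Iars, Tars and Yars), in 0 of 14 mitochondrial promoters and in 4.06% of the promoters of 27025 genes. A match in each of these 5 genes is printed to show its letters and its distance from the start. Each is shown 5′ to 3′ on the strand of the gene in a window of 30 bases, with the match in capitals. The capitals read as the reverse complement of the pattern in all but Yars.
Aars, chr8:111033840-111033869, plus strand, match 9 bases after the start: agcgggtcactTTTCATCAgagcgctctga
Gars, chr6:55037960-55037989, plus strand, match 22 bases before the start: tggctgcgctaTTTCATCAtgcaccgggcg
Iars, chr13:49682126-49682155, plus strand, match 7 bases after the start: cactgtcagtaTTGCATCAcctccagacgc
Tars, chr15:11399655-11399684, minus strand, match 7 bases before the start: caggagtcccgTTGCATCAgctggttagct
Yars, chr4:129189895-129189924, plus strand, match 3 bases after the start: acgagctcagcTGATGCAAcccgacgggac

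The 5 cytosolic genes with a match had differences of 0.06 (Tars) to 0.41 (Yars), with a median of 0.24. The 7 without one (Eprs, Farsa, Farsb, Kars, Mars1, Qars and Sars) had a median of -0.01. All 5 genes with a match are ATF4-listed. Among those without a match, Mars1 (0.38), Sars (0.22) and Eprs (0.11) are ATF4-listed too, and the others are not. This comparison therefore overlaps with the division by list, which was made with results known, and it was not tested. A match is a description of letters and not of binding, and elements outside the window would be missed. Nars and Wars were among the 7 cytosolic genes not covered by the promoter table. The letters GAAANNGAA of interferon-stimulated response elements occurred in 1 cytosolic promoter (Qars), 0 mitochondrial ones and 8.57% of all. Qars had no TGATGNAA match.

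Of the complex that holds cytosolic synthetases, 7 enzymes were measured, with a median difference of 0.06. Separated upward were 3 (Eprs, Iars and Mars1), where 7.49% of all genes and 9.39% of genes with a signal above the array median were. Of the scaffold genes, Aimp1 differed by 0.04 (SE 0.14) and Aimp2 by 0.08 (SE 0.11), both with overlapping groups. Eef1e1, the smallest scaffold protein, read 10.57, 10.85 and 10.78 on PBS-liposome arrays and 10.11, 10.55 and 10.35 on clodronate-liposome arrays. All treated arrays were below all controls, by 0.02, and the difference was -0.40 (SE 0.14, interval -0.72 to -0.08, adjusted p = 0.342).

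Genes of proofreading, tRNA amidation and related steps (11 measured) had a median of -0.02 and 0 past the threshold. Separated upward were Dtd2, a deacylase that removes mischarged amino acids (0.33), Qrsl1, a subunit of the enzyme that forms mitochondrial glutaminyl-tRNA (0.32), and Tarsl2, a second threonine enzyme (0.30), and separated downward was Mtfmt, which formylates the mitochondrial initiator tRNA (-0.36). These 4 are named after their values had been seen, and 7.49% of all genes were separated upward and 8.75% downward. Elongation factors, which carry charged tRNA to the ribosome (7 measured), had a median of -0.03 and 0 separated genes.

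Regulators and targets of the integrated stress response (27 measured) had a median of 0.07. Of them, 7 were separated upward and 5 downward, where 7.49% and 8.75% of all genes were. The threshold was passed by 1 upward and 2 downward, where 0.434% of all genes passed it in either direction. Slc7a5, a transporter of large neutral amino acids, rose. It read 8.09, 8.02 and 8.07 on PBS-liposome arrays and 9.17, 8.87 and 8.82 on clodronate-liposome arrays, a difference of 0.90 (SE 0.12, adjusted p = 0.031). Asns, which makes asparagine, the substrate of Nars, read 10.98, 11.28 and 11.17 against 12.07, 11.84 and 11.82, a difference of 0.77 (SE 0.12) that missed the threshold (adjusted p = 0.061). Eif2ak2, an interferon-inducible eIF2α kinase, fell by 1.14 (SE 0.15, adjusted p = 0.031), and Atf3, an ATF4 target that other signals also induce, fell by 0.73 (SE 0.11, adjusted p = 0.045). Transcripts of Atf4 itself, which is controlled largely at translation, differed by 0.00 (SE 0.12, interval -0.27 to 0.28). Those of its targets Ddit3 and Trib3 differed by -0.08 (SE 0.12) and 0.07 (SE 0.15). Larger upward differences that missed the threshold, in genes named after their values had been seen, were 1.09 for Psat1 (SE 0.29, adjusted p = 0.206) and 1.08 for Mthfd2 (SE 0.18, adjusted p = 0.068). These encode enzymes of serine synthesis and mitochondrial one-carbon metabolism. The same holds for Slc7a1, a transporter of cationic amino acids (0.62, SE 0.15, adjusted p = 0.175). Also named after their values had been seen, the remaining genes separated downward were Ddit4 (-0.64, SE 0.15, adjusted p = 0.170), Cebpb (-0.31, adjusted p = 0.368) and Psph (-0.21, adjusted p = 0.478). The calls for Slc7a5, Eif2ak2 and Atf3 were lost with any single array left out (adjusted p 0.067 to 0.173), with the replicate number as a block (0.067 to 0.128) and with the hybridization control signal in the fit (0.196 to 0.198), all in the same direction.

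Markers of other cell types that the sort could hold were measured beside these genes, since bulk signals do not tell fewer cells of a type from less RNA per cell. Macrophage and leukocyte markers (13 genes) had a mean signal of 7.99 to 8.37 on PBS-liposome arrays and 7.90 to 8.06 on clodronate-liposome arrays. Their median difference was -0.09, with 0 past the threshold. The 4 separated downward were Fcer1g (-0.69), Csf1r (-0.65), Ptprc (-0.58) and Cd68 (-0.08), where 8.75% of all genes were. Epithelial markers (5 genes) had a median of -0.02, fibroblast and mural markers (6) of -0.21 and platelet and erythroid markers (4) of -0.32. The epithelial signal was uneven between arrays. Its mean was 8.09, 7.88 and 8.03 on PBS-liposome arrays 1, 2 and 3, and 7.49, 8.28 and 8.36 on clodronate-liposome arrays 1, 2 and 3. In the same order, the epithelial marker Sftpc read 11.38, 10.14 and 11.35 against 8.49, 12.78 and 11.47. Endothelial markers had a median of 0.07, and each list had 0 past the threshold. Separated downward in these lists were Pdgfrb (-0.27), Acta2 (-0.21), Itga2b (-0.56) and the endothelial marker Flt1 (-0.24). Each of the marker lists had 0 genes separated upward. All single markers in this paragraph are named after their values had been seen. The part of other cell types in the synthetase differences was not tested.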

How the data were processed

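RNA of sorted lung ECs was hybridized to Affymetrix mouse whole-genome arrays. The deposited table holds log2 signals that the authors made by robust multiarray averaging (RMA), and these were used as deposited. RMA equalizes the arrays' distributions, so a shift shared by all genes is not visible. Of 45101 probe sets, 64 manufacturer controls were set aside and 45037 were tested. The platform annotation gave 34945 of them 1 gene symbol, 932 several and 9160 none, and each of 18193 genes was represented by its brightest probe set. All 35 members were found by gene identifier in RefSeq. A small number of items are not reported here.

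Groups were compared with two-sided moderated tests from limma 3.58.1 (R 4.3.3) without covariates, following the empirical Bayes test in the study's methods, with Benjamini-Hochberg adjustment over the 45037 probe sets and a threshold of 0.05. Intervals are 95%. Degrees of freedom were 4 residual and 3.90 prior, and 3 arrays per group limit precision. P values measure the spread between these samples. Of these steps, only the limma fit without covariates was tested on simulated data.

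Members and lists (ATF4-listed and other cytosolic synthetases, complex enzymes and scaffolds, accessory enzymes, elongation factors, integrated stress response, interferon-gamma reference, cell type markers) were chosen with earlier results of these data known. Signals on every array are given for the 8 cytosolic and 4 mitochondrial genes with the lowest p, and for Wars, Gars, Kars and Eprs, and other probe sets where the sign was opposite or the size of the difference over 2-fold apart. Related genes are named for the scaffolds, Atf4, Ddit3, Asns and Trib3, and where past the threshold, and others are identified as named after their values had been seen. Alternatives covered a low-signal filter, quantile normalization applied again, centring on array medians, replicate numbers as blocks, trended and robust variances, array weights, both technical covariates, each array left out, and the choice or mean of probe sets. A fit with clodronate-liposome replicate 2 alone in the treated group was added after the data had been seen.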

Additional observations from a re-analysis of the deposited data

How the results depend on the processing

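No synthetase gene passed the threshold in any of 17 alternatives. Of 237 recomputed differences of 14 named genes, 236 kept their direction, and the exception was Vars2, at -0.032 with its most variable probe set. The count of 138 probe sets past the threshold over the whole array became 244 with the low-signal filter (fewer probe sets tested), 248 with trended and robust variances, 234 with array weights and 43 with the 3′ minus 5′ signal as a covariate, and 6 to 73 with 1 array left out (6 without PBS-liposome replicate 2, 73 without clodronate-liposome replicate 2). It was 0 in limma fits with the replicate number as a block (smallest adjusted p 0.0507, 5033 probe sets with an unadjusted p under 0.05), with the signal of hybridization controls as covariate (4710 unadjusted), and with clodronate-liposome replicate 2 alone in the treated group (3964 unadjusted). In the last of these fits the single treated array was assumed to vary like the controls. The cause of these changes in the count was not tested. The labels do not say whether arrays with the same replicate number are paired, and pairing was left undecided. Deviations of arrays with the same number correlated at 0.075, 0.070 and 0.036, and those with different numbers at -0.058 to -0.006. Each array correlated best with its own number, but correlations this small cannot decide the question. The cytosolic median was 0.044 to 0.105 and the mitochondrial median -0.021 to 0.067 with 1 array left out. Over all alternatives the median was 0.10 to 0.27 for ATF4-listed genes, -0.09 to -0.02 for the other cytosolic genes and -0.03 to 0.07 for mitochondrial genes. The low-signal filter left out Ears2 and Mars2. Signals below the array median, as for those 2 genes, limit what can be measured.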
